A study of Homo sapiens with 21 samples.

Results

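The circadian clock genes described here are PER1, PER2, PER3, CRY1, CRY2, NR1D2, BHLHE40, CLOCK, ARNTL2 and DBP. The 10 genes were taken by symbol from the platform annotation, by a rule that uses no measured value, out of 18132 genes that have a probe set with 1 symbol. All 10 have such a probe set, and ARNTL2 is listed under its current symbol BMAL2. The series holds 21 Affymetrix PrimeView arrays of RNA from 4 established human breast cancer cell lines. Each line was cultured for 6 hours with THZ1, a covalent inhibitor of the transcription kinase CDK7, at 50 or 250 nM, or with the solvent DMSO. MDA-MB-468 and BT-549 are labelled triple-negative, ZR-75-1 is labelled ER+ and T47D ER+/PR+, where ER and PR are the oestrogen and progesterone receptors. Each dose has 2 arrays, except in BT-549, which has 1 and therefore no test.

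In the mammalian clock, CLOCK pairs with BMAL1 or with its relative ARNTL2 (BMAL2) and activates genes that carry E-boxes, among them the PER, CRY, NR1D, BHLHE40 and DBP genes. PER and CRY proteins return to the nucleus and inhibit that pair, BHLHE40 competes at E-boxes, NR1D2 (REV-ERB beta) represses through ROR elements, and DBP activates through D-boxes. CDK7, part of the factor TFIIH, phosphorylates RNA polymerase II at promoters. The arrays cover 1 time after treatment, and the labels name no synchronisation of the cultures, so they show levels and not rhythms.

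The values are array intensities on a linear scale, and changes are differences of log2 intensity with the standard error (SE) of a limma fit. The threshold for a call was an adjusted p of 0.05 (Benjamini-Hochberg). Tests ran over 12644 genes, those with at least 1 group mean not under log2 5.84, an intensity of 57.4 and the median over all values. PER1 stayed under that level and 9 of the 10 clock genes were tested. All 10 genes lay above the mean of 23 background probe sets on all 21 arrays. The mean intensity of the arrays ranged from 326.4 to 342.8, so each change is relative to the total signal of its array, and whether RNA per cell changed was not tested. Whether replicates came from separate cultures is not stated, so the p-values measure the spread between arrays, which may be technical. A line's arrays are bulk RNA, in which fewer cells with a transcript and less RNA per cell cannot be told apart. For the samples titled ZR-75-1 or T47D, 1 other label field gives MDA-MB-468. With DMSO the ER gene ESR1 stood at 30.9 for samples titled MDA-MB-468 and 18.4 for BT-549. It stood at 441.6 for those titled ZR-75-1 and 906 for T47D (means of 2 arrays, except in BT-549). ESR1 was thus higher under the titles of the lines labelled ER+, and does not decide which of these is ZR-75-1 and which T47D. Of 10 immune, endothelial and stromal markers 9 were measured, with a summed intensity of 265.5 to 625.6 over the arrays. On each array 4 to 6 of the 9 lay above background, with CD68, PECAM1, CDH5 and COL1A1 above it on all arrays. With DMSO, CD14 stood at 291.1 in MDA-MB-468 (mean of 2 arrays) and COL1A1 at 278.3 on the BT-549 array. PTPRC and LUM were not above background on any array.

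The promoter windows of PER2, PER3, BHLHE40 and NR1D2 are shown because these 4 genes fell by at least 2-fold in ZR-75-1 at 250 nM as deposited and hold motifs through which the loop acts. Each runs 5′ to 3′ on the gene's strand from 250 bases before to 10 bases after a RefSeq start site on GRCh38.p14. Capitals mark matches, counted by their first base from the start site, to the E-box CACGTG, the E-prime box CACGTT, the D-box TTATGTAA or TTACGTAA, or the nuclear receptor motif AGGTCA, on either strand. The windows are chr2:238288601-238288860 on the minus strand for PER2, chr1:7784041-7784300 on the plus strand for PER3, chr3:4979187-4979446 on the plus strand for BHLHE40, and chr3:23945871-23946130 on the plus strand for the second of the start sites of NR1D2.
PER2: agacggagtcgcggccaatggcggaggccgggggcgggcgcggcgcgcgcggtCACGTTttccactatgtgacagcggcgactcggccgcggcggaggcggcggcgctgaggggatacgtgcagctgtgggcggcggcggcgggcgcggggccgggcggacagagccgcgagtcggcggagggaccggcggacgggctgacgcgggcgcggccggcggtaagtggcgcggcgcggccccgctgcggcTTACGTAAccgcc
PER3: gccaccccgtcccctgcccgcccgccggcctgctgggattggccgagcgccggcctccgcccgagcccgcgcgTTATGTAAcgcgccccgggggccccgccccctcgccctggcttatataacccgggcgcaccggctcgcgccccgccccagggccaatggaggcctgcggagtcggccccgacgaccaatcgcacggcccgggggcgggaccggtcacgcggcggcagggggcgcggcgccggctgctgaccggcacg
BHLHE40: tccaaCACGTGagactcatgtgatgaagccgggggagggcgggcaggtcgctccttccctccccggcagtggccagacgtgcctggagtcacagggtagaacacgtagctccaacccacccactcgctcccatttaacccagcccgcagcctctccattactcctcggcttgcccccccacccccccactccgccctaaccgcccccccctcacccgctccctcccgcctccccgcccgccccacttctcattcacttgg
NR1D2: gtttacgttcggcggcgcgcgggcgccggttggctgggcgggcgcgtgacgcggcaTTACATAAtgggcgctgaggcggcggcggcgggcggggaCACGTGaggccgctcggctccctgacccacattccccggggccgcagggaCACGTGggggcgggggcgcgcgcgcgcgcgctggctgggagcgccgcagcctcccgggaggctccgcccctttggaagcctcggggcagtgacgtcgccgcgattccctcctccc

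PER2 holds an E-prime box at -197 and a D-box at -3, and PER3 a D-box at -177. BHLHE40 has an E-box at -245, while NR1D2 has E-boxes at -155 and -105 with a D-box at -194. RefSeq gives 14 windows of 300 bases for the 10 genes, reaching 50 bases past the start. In these an E-box lies in PER1, NR1D2 and BHLHE40, that is in 3 of the 14 windows, and in 7.26% of all 35116 windows of that length. E-prime boxes lie in 4 windows, those of PER2, CRY1, CRY2 and CLOCK (5.34% of all windows), and D-boxes in 3, of PER2, PER3 and NR1D2 (1.01%). The nuclear receptor motif lies in 3 windows of PER1 and CRY2 (13.8%), and the cAMP response element TGACGTCA in none of the 14 windows (1.85% of all). The windows of ARNTL2 and DBP hold none of these letters. A match is a description of the sequence and not a site in use.

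**Figure D1:**
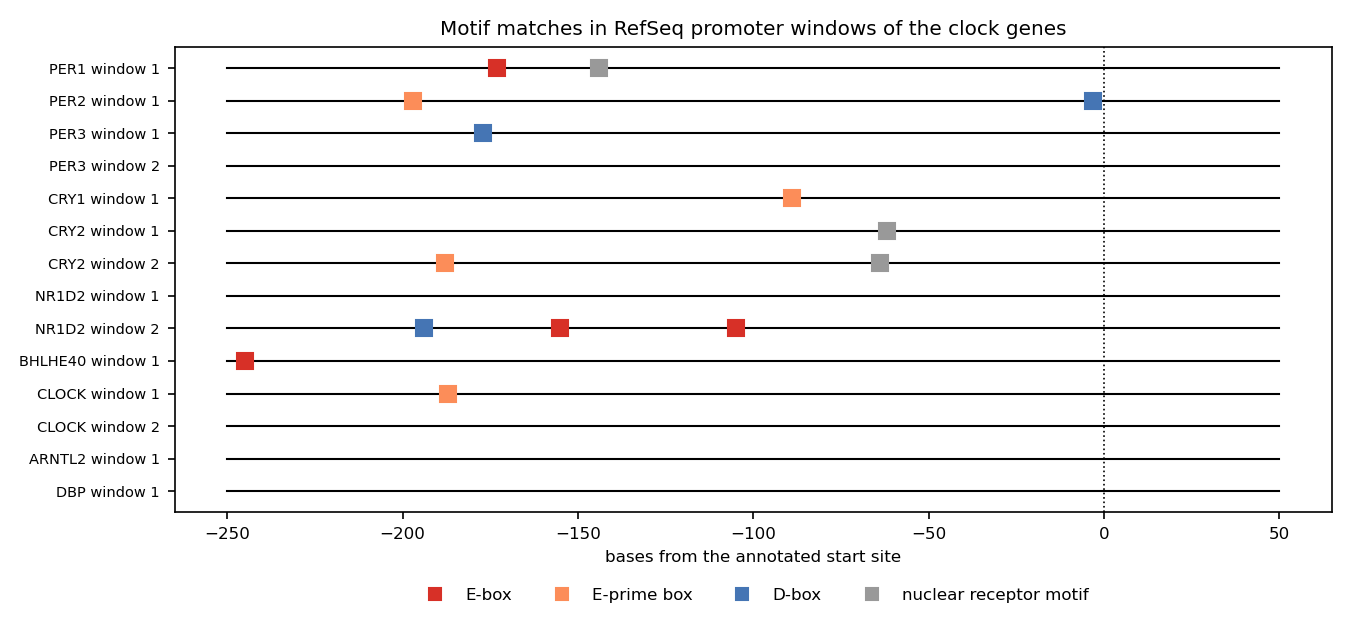
Motif matches in the 14 RefSeq promoter windows of the 10 clock genes, by distance in bases from the annotated start site, with 1 line per window and 1 square per match. The second window of NR1D2 holds 2 E-boxes and a D-box, and the windows of ARNTL2 and DBP hold none.

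With DMSO the lines differed in most clock genes, as they did in most genes tested. Of all genes, 33.1% were higher and 34.4% lower in MDA-MB-468 than in the ER+ lines. Of the clock genes, the activator ARNTL2 varied most among the 4 lines. ARNTL2 had an intensity of 72.6 and 78.7 in MDA-MB-468, 198.1 on the BT-549 array, 43.7 and 41.1 in ZR-75-1, and 29.4 and 33.9 in T47D. The order was therefore BT-549, MDA-MB-468, ZR-75-1 and T47D, with no overlap between the replicated lines. Against the mean of ZR-75-1 and T47D, ARNTL2 was higher in MDA-MB-468 by 1.05 ± 0.11 on the log2 scale (SE, limma adjusted p = 5.8e-07). ARNTL2 passed the filter on intensity through MDA-MB-468 and BT-549 alone. Its T47D arrays lay near the background (mean log2 4.98, where background probe sets averaged 4.66 and 4.73), so the size of the difference is uncertain. ZR-75-1 stood above T47D by 0.42 ± 0.13, a call that ended without ZR-75-1 DMSO array 1 (0.38) or T47D DMSO array 1 (0.32).

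NR1D2, the nuclear receptor REV-ERB beta, had 583.8 and 716.8 in MDA-MB-468, 139.6 on the BT-549 array, 345.2 and 304.4 in ZR-75-1, and 357.3 and 370.4 in T47D. It was higher in MDA-MB-468 than in the ER+ lines (0.91 ± 0.11), lowest on the BT-549 array, and not called between ZR-75-1 and T47D (-0.17 ± 0.13). Of the 4 probe sets of NR1D2, however, 2 were called lower in ZR-75-1 than in T47D, with differences over the 4 from -0.73 to 0.04. DBP, a PAR leucine zipper activator, had 104.3 and 96.4 in MDA-MB-468, 42.1 on the BT-549 array, 69.3 and 54.8 in ZR-75-1, and 43.1 and 50.1 in T47D. It was likewise higher in MDA-MB-468 (0.91 ± 0.13). ZR-75-1 was above T47D by 0.41 ± 0.15, which was lost without ZR-75-1 DMSO array 1 (0.24) or T47D DMSO array 1 (0.30) and with averaged probe sets (0.26).

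PER3 was also higher in MDA-MB-468 than in the ER+ lines (0.74 ± 0.09), while PER2 differed by -0.01 ± 0.08 (limma adjusted p = 0.951, 95% interval -0.18 to 0.16). BHLHE40, the repressor DEC1, was lower in MDA-MB-468 (-0.45 ± 0.09) and had its highest arrays in T47D. CRY1 was higher in MDA-MB-468 by 0.31 ± 0.12 and CRY2 lower by 0.29 ± 0.12 (limma adjusted p = 0.0363 and 0.044). The CRY1 call ended without MDA-MB-468 DMSO array 1 (0.36) or 2 (0.27), ZR-75-1 DMSO array 2 (0.24) or T47D DMSO array 2 (0.27), when arrays were centred on their medians (0.25) and with no trend (0.31). The CRY2 call ended without each of 12 of the 18 arrays (-0.34 to -0.24), with averaged probe sets (-0.15), with no filter and with the replicate block (-0.29 each). CLOCK, the partner of the BMAL proteins, differed by -0.03 ± 0.09, and averaging all its probe sets gave a higher level in MDA-MB-468 (0.31).

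In all, 5 of 9 clock genes were higher and 2 lower in MDA-MB-468 than in the ER+ lines, where 33.1% and 34.4% of all genes tested were. As ARNTL2 entered the test through the lines where it is high, that count supports nothing about the clock genes. The same holds for the counts of MDA-MB-468 against each ER+ line that follow, which also include ARNTL2 as higher. Against ZR-75-1 alone MDA-MB-468 had 5 higher and 0 lower (35.5% and 30.5% of all genes), and against T47D 4 higher and 2 lower (30.8% and 36.8%). Among these, CRY1 against ZR-75-1 (0.54 ± 0.14) lost its call without ZR-75-1 DMSO array 2 (0.38), and CRY2 against T47D (-0.38 ± 0.14) without MDA-MB-468 DMSO array 2 (-0.34) or T47D DMSO array 2 (-0.29) and with quantile normalization (-0.37). Between ZR-75-1 and T47D, ARNTL2, DBP, CLOCK (0.35 ± 0.10) and PER2 (0.33 ± 0.09) were higher, and BHLHE40 (-0.64 ± 0.11), CRY1 (-0.45 ± 0.14) and PER3 (-0.29 ± 0.11) lower (25.9% and 37.1% of all genes). In that pair PER2 lost its call without ZR-75-1 DMSO array 2 (0.27). CRY1 lost it without that array (-0.29) or T47D DMSO array 1 (-0.35). PER3 lost it without either of these (-0.18 and -0.21), after centring (-0.20), with quantile normalization (-0.14) and with averaged probe sets (-0.15).

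**Figure D2:**
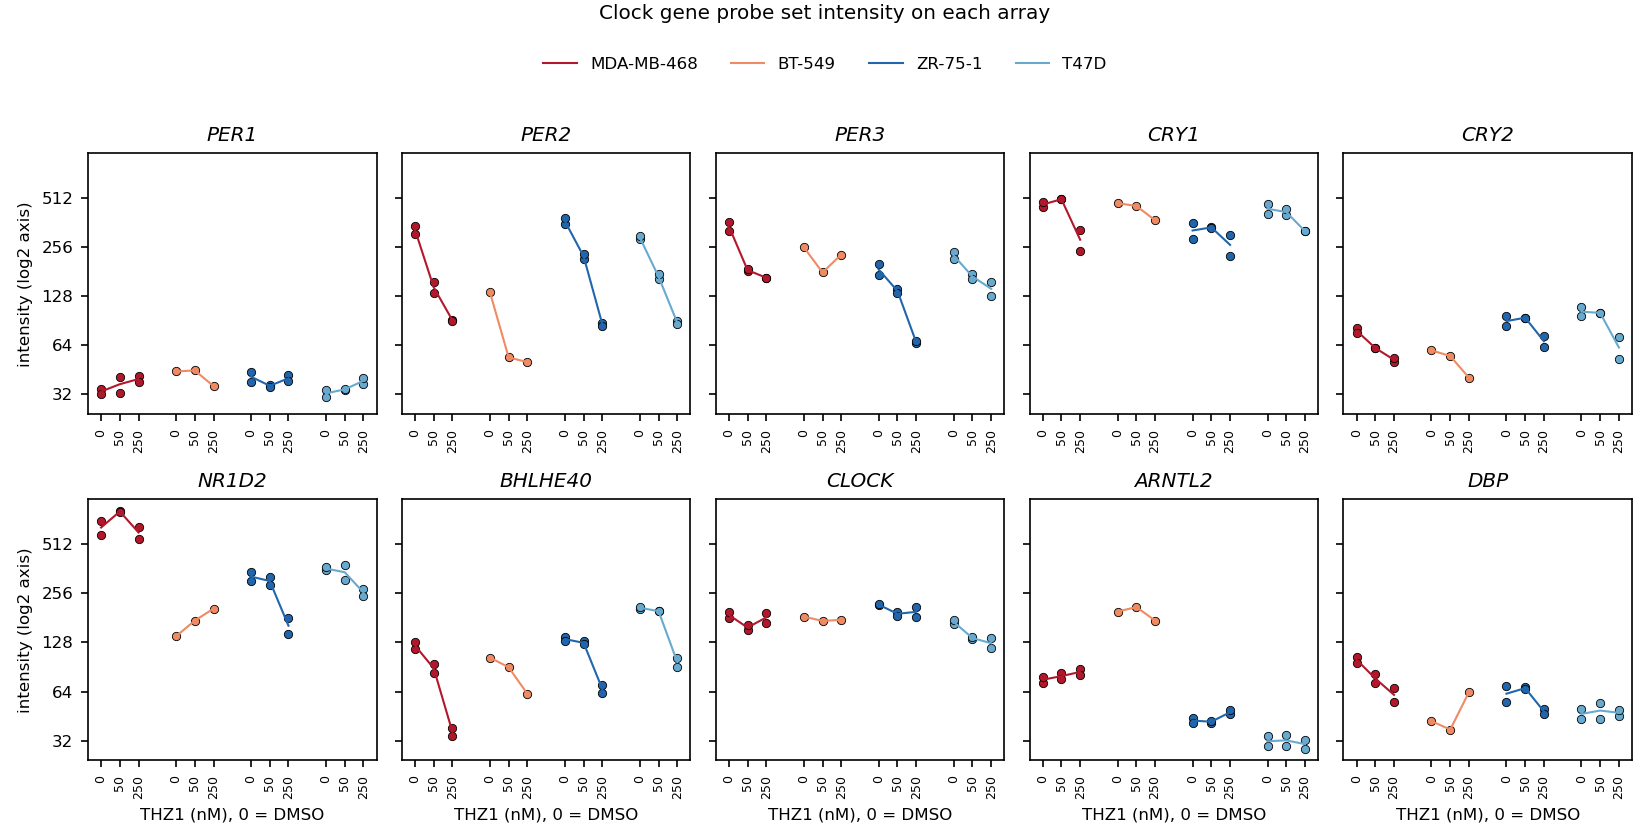
Intensity (log2 axis) of the probe set of each clock gene on every array, with THZ1 dose in nM on the horizontal axis for MDA-MB-468, BT-549, ZR-75-1 and T47D. Points are arrays and lines join group means, and levels of different probe sets are not comparable with each other. PER2 is lower at each dose in all 4 lines, PER1 lies between 30.8 and 44.8 on all arrays, and ARNTL2 separates the lines more than the doses.

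PER2 fell with THZ1 at both doses in each replicated line. PER2, the period protein that inhibits CLOCK with the CRY proteins, had 310.2 and 346.8 with DMSO, 134.2 and 156.2 at 50 nM, and 91.3 and 90.8 at 250 nM in MDA-MB-468. In ZR-75-1 it had 353.3 and 386.8 with DMSO, 217.8 and 232.6 at 50 nM, and 87.6 and 84.6 at 250 nM. In T47D the values were 288.1 and 298.9, then 163.1 and 174.5, then 90.2 and 85.9. No 2 doses overlapped in any of these lines, and at 250 nM the 3 lines lay between 84.6 and 91.3 together.

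At 50 nM the log2 change of PER2 was -1.18 ± 0.09 in MDA-MB-468, -0.72 ± 0.09 in ZR-75-1 and -0.80 ± 0.09 in T47D (SE, limma adjusted p = 5.22e-07, 0.000224 and 5.12e-05). At 250 nM it was -1.85 ± 0.09, -2.10 ± 0.09 and -1.74 ± 0.09, which is 3.6-fold, 4.29-fold and 3.33-fold lower (limma adjusted p = 1.65e-10, 1.93e-11 and 6.9e-10). The step from 50 to 250 nM was called as well, with -0.67 ± 0.09, -1.39 ± 0.09 and -0.94 ± 0.09. These 9 calls held under the alternatives that could be run and without each of the 18 arrays in turn. They rest on 1 probe set of PER2, as described with the other probe sets.

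PER3, a second period gene, fell at both doses too. In MDA-MB-468 it had 322 and 367.7 with DMSO, 183.3 and 187.1 at 50 nM, and 166.2 on both arrays at 250 nM. The ZR-75-1 arrays had 200.6 and 172.8, then 141.5 and 134.3, then 66.1 and 67.5. In T47D it had 240.5 and 215.3, then 174.2 and 164.2, then 128.6 and 156.1. On this probe set the DMSO arrays were above all treated arrays in each line. In MDA-MB-468 most of the difference was already there at 50 nM. The dimmer of the 2 tested probe sets of PER3 did not show this. In MDA-MB-468 it changed by 0.11 at 50 nM, with no call, and was called lower from 50 to 250 nM (-0.41).

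The changes of PER3 at 50 nM were -0.89 ± 0.11 in MDA-MB-468, -0.43 ± 0.11 in ZR-75-1 and -0.43 ± 0.11 in T47D (SE, limma adjusted p = 2.42e-05, 0.0187 and 0.0184). At 250 nM they were -1.05 ± 0.11, -1.48 ± 0.11 and -0.68 ± 0.11 (limma adjusted p = 6.08e-07, 5.59e-09 and 6.99e-05). From 50 to 250 nM PER3 was called lower in ZR-75-1 (-1.05 ± 0.11), and not in MDA-MB-468 (-0.16 ± 0.11, 95% interval -0.38 to 0.07) or T47D (-0.26 ± 0.11, 95% interval -0.48 to -0.03, limma adjusted p = 0.0819). The call in ZR-75-1 at 50 nM ended without ZR-75-1 DMSO array 1 (-0.33), 50 nM array 1 (-0.47) or 50 nM array 2 (-0.40), and with the line fitted alone (-0.43). That in T47D at 50 nM ended without T47D DMSO array 1 (-0.35), 50 nM array 1 (-0.47) or 50 nM array 2 (-0.39). Without T47D 250 nM array 2 the step from 50 to 250 nM passed (-0.40).

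PER1, the third period gene, had 30.8 to 44.8 on the 21 arrays and was not tested among the 12644 genes. With all 18132 genes fitted, its changes at 50 and 250 nM were 0.14 and 0.25 in MDA-MB-468, -0.18 and -0.03 in ZR-75-1, and 0.08 and 0.26 in T47D, each with an SE of 0.15. None passed (limma adjusted p from 0.25 to 0.921 against DMSO).

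BHLHE40, a transcription repressor of the same loop, fell by at least 2-fold in every replicated line at 250 nM as deposited. In MDA-MB-468 it had 117.3 and 128 with DMSO, 94.6 and 83.2 at 50 nM, and 38.3 and 34 at 250 nM. In ZR-75-1 it had 138.2 and 130.4, then 130 and 124.6, then 69.8 and 62.7. In T47D it had 206.5 and 211.4, then 198.3 and 200.6, then 90.6 and 103.5. The ER+ lines at 50 nM stayed near their DMSO arrays, whereas MDA-MB-468 was already below them. At 250 nM the MDA-MB-468 arrays lay near the background, so the size of the fall there is uncertain. Their mean log2 was 5.17, where background probe sets averaged 4.85 and 4.75.

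BHLHE40 changed at 250 nM by -1.76 ± 0.11 in MDA-MB-468, -1.02 ± 0.11 in ZR-75-1 and -1.11 ± 0.11 in T47D (SE, limma adjusted p = 1.26e-09, 4.47e-07 and 3.82e-07). The fall was under 2-fold in ZR-75-1 and T47D after centring (-0.77 and -0.99) and with quantile normalization (-0.64 and -0.82), still called in both. At 50 nM it was lower in MDA-MB-468 by 0.47 ± 0.11 (limma adjusted p = 0.00552), a call that ended without MDA-MB-468 DMSO array 2 (-0.40) or 50 nM array 2 (-0.37). The 50 nM changes in ZR-75-1 and T47D were -0.08 ± 0.11 (95% interval -0.30 to 0.15) and -0.07 ± 0.11 (95% interval -0.29 to 0.16). From 50 to 250 nM the changes were -1.30 ± 0.11, -0.94 ± 0.11 and -1.04 ± 0.11 in MDA-MB-468, in ZR-75-1 and in T47D, all called.

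The cryptochromes CRY1 and CRY2, the partners of PER proteins in the inhibitory complex, were called against DMSO at 250 nM and not at 50 nM. CRY1 had 453.4 and 482.7 with DMSO, 504.4 on both arrays at 50 nM, and 241.6 and 327.8 at 250 nM in MDA-MB-468. The ZR-75-1 arrays had 359 and 289.4, then 342.8 and 334.8, then 303.7 and 225.7, so that the doses overlapped. In T47D it had 469.7 and 412, then 402 and 439.1, then 320.9 and 321.5.

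CRY1 fell at 250 nM in MDA-MB-468 (-0.73 ± 0.14, SE, limma adjusted p = 0.000621) and T47D (-0.45 ± 0.14, 0.0182). In ZR-75-1 it was at -0.30 ± 0.14 (limma adjusted p = 0.0946), and passed without ZR-75-1 DMSO array 2 (-0.46) or 250 nM array 1 (-0.51). The T47D call ended without T47D DMSO array 1 (-0.36), 250 nM array 1 (-0.45) or 250 nM array 2 (-0.46), after centring (-0.33) and with quantile normalization (-0.20). At 50 nM CRY1 was at 0.11 ± 0.14, 0.07 ± 0.14 and -0.07 ± 0.14 in MDA-MB-468, in ZR-75-1 and in T47D. From 50 to 250 nM it fell in MDA-MB-468 (-0.84 ± 0.14). In ZR-75-1 the step of -0.37 ± 0.14 passed narrowly (limma adjusted p = 0.0436), turned to 0.05 with quantile normalization, and lost its call after centring (-0.14), with the line fitted alone or no trend (-0.37 each), and without each of 9 arrays (-0.39 to -0.16). In T47D it was -0.39 ± 0.14 (limma adjusted p = 0.0519), and passed at that value without either MDA-MB-468 250 nM array, either ZR-75-1 DMSO array or either ZR-75-1 250 nM array.

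CRY2 had 81.3 and 76.1 with DMSO, 61.2 and 62 at 50 nM, and 50.7 and 53.5 at 250 nM in MDA-MB-468. For ZR-75-1 the values were 83.7 and 96.4, then 94.3 and 94.8, then 62.6 and 72.9, and for T47D 96.3 and 109.5, then 101.4 and 100.9, then 71.6 and 52.5. The 250 nM arrays were below the DMSO arrays in all 3 lines. Its changes at 250 nM were -0.59 ± 0.14, -0.41 ± 0.14 and -0.74 ± 0.14 in MDA-MB-468, in ZR-75-1 and in T47D (SE, limma adjusted p = 0.00249, 0.0198 and 0.000375). At 50 nM they were -0.35 ± 0.14, 0.07 ± 0.14 and -0.02 ± 0.14, with no call, although that of MDA-MB-468 passed without either T47D 250 nM array (-0.35). From 50 to 250 nM CRY2 fell in ZR-75-1 (-0.49 ± 0.14) and T47D (-0.72 ± 0.14), and the ZR-75-1 step was lost without ZR-75-1 250 nM array 1 (-0.38), after centring (-0.26), with quantile normalization (-0.13) and with averaged probe sets (-0.15). Averaging also ended the step in T47D (-0.30). The ZR-75-1 call at 250 nM ended without ZR-75-1 DMSO array 2 (-0.31) or 250 nM array 1 (-0.30), after centring (-0.16) and with quantile normalization (-0.04). The last setting ended that in MDA-MB-468 as well (-0.37).

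NR1D2 fell at 250 nM in the ER+ lines. It had 583.8 and 716.8 with DMSO, 817.6 and 813.1 at 50 nM, and 554.5 and 657.3 at 250 nM in MDA-MB-468, where both 50 nM arrays were above the other doses. In ZR-75-1 it had 345.2 and 304.4, then 322.8 and 287.7, then 180.1 and 144.4, and in T47D 357.3 and 370.4, then 311.1 and 380.1, then 274 and 245.2. The 250 nM arrays of both ER+ lines lay below their other arrays. The changes at 250 nM were -0.10 ± 0.13 in MDA-MB-468 (SE, limma adjusted p = 0.601), -1.01 ± 0.13 in ZR-75-1 (5.51e-06) and -0.49 ± 0.13 in T47D (0.00628).

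The T47D call of NR1D2 ended without T47D 250 nM array 2 (-0.41) and with quantile normalization (-0.21). In MDA-MB-468 at 50 nM NR1D2 was at 0.33 ± 0.13 (limma adjusted p = 0.0891), and passed as higher without MDA-MB-468 DMSO array 2 (0.48), after centring (0.47) and with quantile normalization (0.35). From 50 to 250 nM NR1D2 fell in MDA-MB-468 (-0.43 ± 0.13), in ZR-75-1 (-0.92 ± 0.13) and in T47D (-0.41 ± 0.13). The MDA-MB-468 step was lost without 50 nM array 1 (-0.43), 50 nM array 2 (-0.44) or 250 nM array 1 (-0.31). The T47D step was lost without 50 nM array 2 (-0.26) or 250 nM array 2 (-0.33), after centring (-0.33), and with quantile normalization or averaged probe sets (-0.21 each).

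DBP fell at 250 nM in MDA-MB-468, with 104.3 and 96.4 with DMSO, 82 and 71.9 at 50 nM and 67.3 and 54.8 at 250 nM. The ZR-75-1 arrays had 69.3 and 54.8, then 68.1 and 66.2, then 49.8 and 46.7, and those of T47D 43.1 and 50.1, then 43.2 and 54.6, then 45.5 and 49.2, with overlap between the doses in T47D. The change at 250 nM was -0.72 ± 0.15 in MDA-MB-468 (SE, limma adjusted p = 0.00126), -0.35 ± 0.15 in ZR-75-1 (0.0675) and 0.03 ± 0.15 in T47D (0.911). In ZR-75-1 it passed without DMSO array 2 (-0.52). The step from 50 to 250 nM was called in ZR-75-1 (-0.48 ± 0.15), and lost without 50 nM array 1 (-0.46), 50 nM array 2 (-0.50) or 250 nM array 2 (-0.43), after centring (-0.25) and with quantile normalization (-0.25).

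The activators CLOCK and ARNTL2 had 1 call against DMSO between them. CLOCK had 181.8 and 196.1 with DMSO, 151.7 and 164.3 at 50 nM, and 195.5 and 169.6 at 250 nM in MDA-MB-468. In ZR-75-1 it had 217.8 and 219.1, then 198.2 and 185.6, then 210.5 and 184.2, and in T47D 167.3 and 175, then 135.3 and 137.4, then 117.6 and 135.6. At 250 nM it was lower in T47D (-0.44 ± 0.10, SE, limma adjusted p = 0.00197), and stood at -0.05 ± 0.10 in MDA-MB-468 and -0.15 ± 0.10 in ZR-75-1. Quantile normalization gave -0.13 in T47D with no call, and called CLOCK higher in MDA-MB-468 (0.26) and ZR-75-1 (0.33), so its direction depends on the scaling. At 50 nM CLOCK was at -0.33 ± 0.10 in T47D (limma adjusted p = 0.0505), and passed at the same value without either 250 nM array of any of the 3 lines.

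ARNTL2 was called in none of the 6 comparisons with DMSO. Its changes at 250 nM were 0.16 ± 0.13 in MDA-MB-468 (95% interval -0.12 to 0.44), 0.17 ± 0.13 in ZR-75-1 (-0.11 to 0.45) and -0.06 ± 0.13 in T47D (-0.34 to 0.22). The MDA-MB-468 arrays had 72.6 and 78.7 with DMSO, 82.6 and 76.5 at 50 nM, and 87.6 and 81.3 at 250 nM. Centring the arrays called ARNTL2 higher at 250 nM in MDA-MB-468 (0.36) and ZR-75-1 (0.42), and quantile normalization did so too (0.42 and 0.41). For ZR-75-1 the arrays had 43.7 and 41.1, then 41.2 and 42.3, then 46.4 and 49.1, with both 250 nM arrays above the others. T47D, with 29.4 and 33.9, then 34.7 and 29.4, then 32.2 and 28.6, showed overlapping doses.

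**Figure D3:**
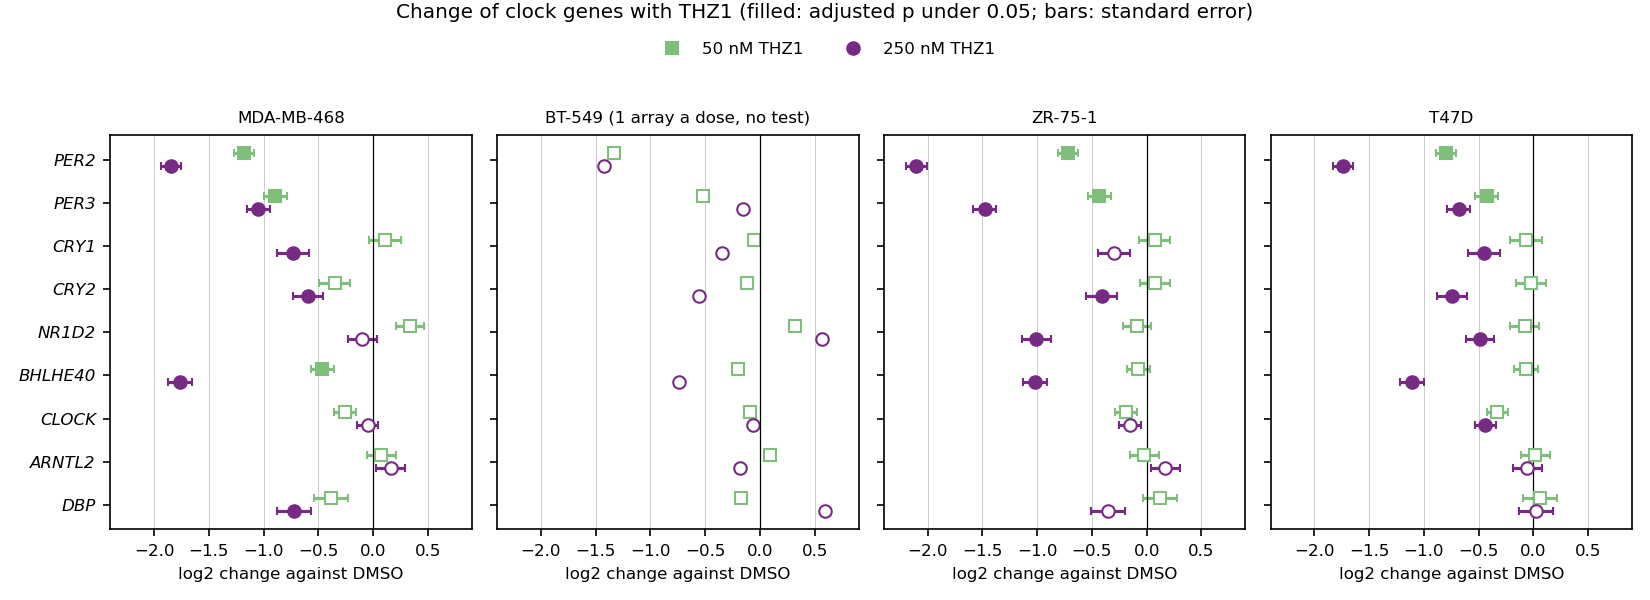
Log2 change of 9 clock genes against DMSO at 50 nM (squares) and 250 nM (circles) in MDA-MB-468, BT-549, ZR-75-1 and T47D, with the SE as bars and filled symbols for limma adjusted p under 0.05. BT-549 has 1 array a dose and neither bars nor test. PER2 and PER3 are the genes filled at both doses in the 3 replicated lines, and ARNTL2 is filled nowhere.

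At 50 nM, 3 of 9 clock genes were lower in MDA-MB-468 (PER2, PER3 and BHLHE40), against 14.6% of all genes tested. In ZR-75-1 it was 2 of 9 (5.68% of all genes), and in T47D 2 of 9 (7.56%), PER2 and PER3 in each. PER2 and PER3 were thus lower in all 3 lines at that dose, as were 358 of 12644 genes (2.83%). Of the clock genes, 0 were called higher than DMSO at either dose in limma. Of all genes, 4.42%, 2.79% and 1.99% were higher at 50 nM in MDA-MB-468, then ZR-75-1, then T47D, and 9.54%, 9.93% and 9.61% at 250 nM. At an unadjusted p under 0.05, NR1D2 in MDA-MB-468 at 50 nM was the 1 higher value (0.33, unadjusted p = 0.0215).

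At 250 nM, 6 of 9 were lower in MDA-MB-468 (30.3% of all genes), 5 of 9 in ZR-75-1 (42.8%) and 7 of 9 in T47D (33.7%). PER2, PER3, BHLHE40 and CRY2 were lower in all 3 lines, as were 23% of all genes. The fall was at least 2-fold for 3 of 9 in MDA-MB-468 (10.6% of all genes), 4 in ZR-75-1 (18.1%) and 2 in T47D (9.44%). From 50 to 250 nM, 4 of 9 were lower in MDA-MB-468 (23.2%), 7 of 9 in ZR-75-1 (41.7%) and 4 of 9 in T47D (27.2%). The median change of the 9 genes at 250 nM was -0.72, -0.41 and -0.49 in MDA-MB-468, in ZR-75-1 and in T47D, beside -0.07, -0.18 and -0.08 over all genes.

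Scaling moves these counts. Centring each array on its median took the median change over all genes at 250 nM to 0.13, 0.07 and 0.05 in MDA-MB-468, in ZR-75-1 and in T47D, and quantile normalization to 0.08, 0.08 and 0.07. Centred arrays gave 6 lower and 1 higher clock genes in MDA-MB-468 (21.8% and 27.4% of all genes), 4 and 1 in ZR-75-1 (31.6% and 28.2%), and 6 and 0 in T47D (26.1% and 19.3%). Quantile normalization gave 5 and 2 in MDA-MB-468 (22.8% and 24.5%), 4 and 2 in ZR-75-1 (30.7% and 32.5%), and 4 and 0 in T47D (24.2% and 26.6%). PER2, PER3 and BHLHE40 were lower at 250 nM in all 3 lines under each scaling.

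Did MDA-MB-468, the triple-negative line with replicates, respond differently from the ER+ lines? At 50 nM none of the 9 genes passed the test of the difference (limma), where 2.48% of all genes had a lower and 0.403% a higher response in MDA-MB-468. PER2 (-0.42 ± 0.11, SE, limma adjusted p = 0.0612), PER3 (-0.46 ± 0.13, 0.0721), BHLHE40 (-0.39 ± 0.13, 0.124), DBP (-0.48 ± 0.19, 0.206), CRY2 (-0.38 ± 0.17, 0.27) and NR1D2 (0.42 ± 0.16, 0.187) had an unadjusted p under 0.05. The response of PER3 passed with quantile normalization (-0.45).

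At 250 nM, 1 of 9 had a lower and 1 a higher response in MDA-MB-468 than in the ER+ lines, beside 5.12% and 13.9% of all genes. The change of BHLHE40 was lower in MDA-MB-468 (difference -0.70 ± 0.13, SE, limma adjusted p = 0.00143), and that of NR1D2 was higher (0.65 ± 0.16, limma adjusted p = 0.00954). The NR1D2 difference lost its call without MDA-MB-468 DMSO array 1 (0.50) or 250 nM array 2 (0.53) and with quantile normalization (0.40). On the single arrays of BT-549, the other triple-negative line, BHLHE40 stood at -0.74 and DBP at 0.59. DBP was just outside at -0.56 ± 0.19 (limma adjusted p = 0.0509), and passed without MDA-MB-468 250 nM array 1 (-0.71), ZR-75-1 DMSO array 1 (-0.64), T47D DMSO array 2 (-0.61) or either T47D 50 nM array (-0.56). CRY1 (-0.36 ± 0.18) passed without MDA-MB-468 250 nM array 2 (-0.58). For PER2 and PER3 the differences were 0.07 ± 0.11 (95% interval -0.17 to 0.31) and 0.03 ± 0.13 (-0.25 to 0.31). The other tested probe set of PER3, dimmer than the one used here, was called lower in MDA-MB-468 in this comparison (-0.63). Whether the response of PER3 differs therefore depends on the probe set.

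Between the ER+ lines, PER3 fell further in ZR-75-1 than in T47D at 250 nM (difference -0.80 ± 0.15, SE, limma adjusted p = 0.00113). This was 1 of 9 clock genes, where 19.8% of all genes had a lower and 2.44% a higher response in ZR-75-1. NR1D2 (-0.52 ± 0.18, limma adjusted p = 0.0564) and PER2 (-0.37 ± 0.13, 0.0583) did not pass. In a fit over probe sets, 1 of the 4 of NR1D2 was called lower in ZR-75-1, with differences over the 4 from -0.61 to -0.22. NR1D2 passed without ZR-75-1 250 nM array 1 (-0.68) and, at -0.52, without either MDA-MB-468 DMSO or either T47D 50 nM array. PER2 passed at -0.37 without either MDA-MB-468 50 nM array. CRY2 (0.33 ± 0.20) passed as higher without T47D 250 nM array 1 (0.56). At 50 nM none passed, beside 0.087% lower and 0.127% higher of all genes (limma), and none had an unadjusted p under 0.05.

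With the 4 lines as replicates, in a fit on 12 line-by-dose means that gives BT-549 the same weight as the others, 5 of 9 clock genes were lower at 250 nM (29.9% of all genes). They were PER2 (-1.78 ± 0.17, SE, limma adjusted p = 0.000129), BHLHE40 (-1.16 ± 0.15, 0.00042), PER3 (-0.84 ± 0.21, 0.0104), CRY2 (-0.58 ± 0.10, 0.00168) and CRY1 (-0.46 ± 0.09, 0.0044). PER3 lost its call without MDA-MB-468 (-0.77) and when probe sets were averaged (-0.28), and CRY1 with quantile normalization (-0.18). NR1D2 stood at -0.26 ± 0.21 and passed as lower without BT-549 (-0.53). At 50 nM PER2 was the 1 clock gene called (-1.01 ± 0.17, limma adjusted p = 0.0488), in a comparison where 40 of 12644 genes were lower (0.316%). That call ended without BT-549 (-0.90), MDA-MB-468 (-0.95) or T47D (-1.08).

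In BT-549, with 1 array a dose, PER2 stepped down from DMSO to 50 and to 250 nM, as in the replicated lines. PER3, NR1D2 and DBP were among the genes that did not step down in BT-549. PER2 had 135.6 with DMSO, 53.9 at 50 nM and 50.5 at 250 nM, log2 changes of -1.33 and -1.43, where 3.24% and 8.94% of all genes were at least 2-fold lower. BHLHE40 had 103.5, 90.1 and 61.9, CRY2 59.6, 55 and 40.5, and CRY1 476.9, 458.8 and 374.4. PER3 had 256.3, 179.2 and 230.6, so its 250 nM array was nearer to DMSO than its 50 nM array. NR1D2 had 139.6, 174.5 and 206.4 (changes of 0.32 and 0.56), and DBP 42.1, 37.4 and 63.5 (-0.17 and 0.59). CLOCK had 184.6, 173.6 and 176.2, and ARNTL2 198.1, 211.2 and 174.4. None of these differences has a replicate.

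Several clock genes have more than 1 probe set, and for PER2 and PER3 the probe sets disagreed. The 10 genes have 24 probe sets, 15 of which passed the filter on intensity in a fit of 31607 probe sets. PER2 has 5, of which 2 were tested. The dimmer of these had 61.2 and 56.9 with DMSO, 57.8 and 57.6 at 50 nM, and 68.4 and 72.7 at 250 nM in MDA-MB-468. It changed by 0.26 ± 0.13, 0.15 ± 0.13 and 0.27 ± 0.13 at 250 nM in MDA-MB-468, in ZR-75-1 and in T47D with no call, and was called higher in ZR-75-1 at 50 nM (0.48 ± 0.13, limma adjusted p = 0.0366). The brighter one, on which the results for PER2 rest, carries the suffix that Affymetrix gives to probe sets whose probes may match transcripts of more than 1 gene, as do those used for NR1D2 and DBP.

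PER3 has 3 probe sets, 2 tested, and the dimmer tested one changed by -0.30 ± 0.14, 0.28 ± 0.14 and 0.36 ± 0.14 at 250 nM in MDA-MB-468, in ZR-75-1 and in T47D, with no call. When all probe sets of a gene were averaged, PER3 changed at 250 nM by -0.59 in MDA-MB-468, -0.43 in ZR-75-1 and -0.18 in T47D, the last without a call, and the PER3 calls at 50 nM in ZR-75-1 (-0.04) and T47D (-0.09) ended. The difference of PER3 between ZR-75-1 and T47D at 250 nM then lost its call too (-0.24), and PER2 fell under the filter.

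All 4 probe sets of NR1D2 were tested, and all 4 were lower in ZR-75-1 at 250 nM (-1.01, -0.96, -0.42 and -0.30). In T47D the brightest alone was called (-0.49, beside -0.36, -0.08 and 0.18), and in MDA-MB-468 none. Averaging took the T47D change to -0.19 and the difference between MDA-MB-468 and the ER+ lines to 0.22, both with no call. Both probe sets of DBP fell in MDA-MB-468 at 250 nM (-0.72 and -0.70). CRY2 and CLOCK have 2 probe sets with 1 tested each, PER1 has 3 with none tested, and CRY1, BHLHE40 and ARNTL2 have 1. Averaging ended the CRY2 call in ZR-75-1 (-0.07) and called CLOCK lower at 250 nM in MDA-MB-468 (-0.27) and ZR-75-1 (-0.33).

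**Figure D4:**
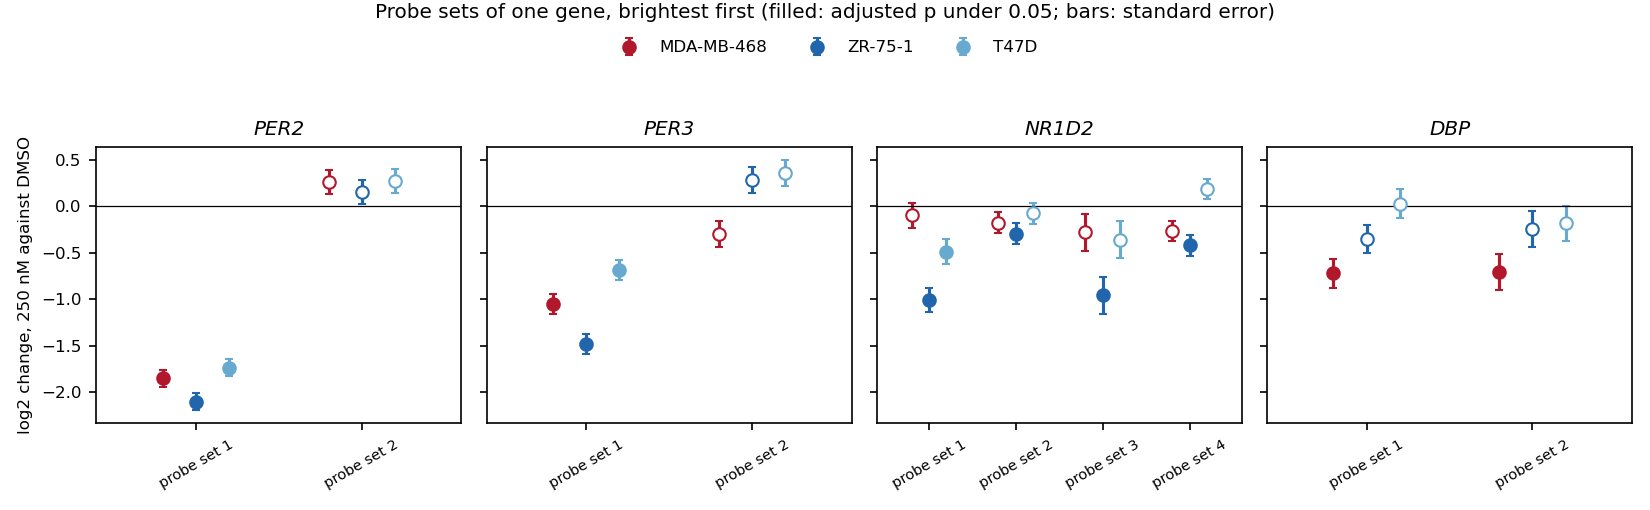
Log2 change at 250 nM against DMSO of each tested probe set of the 4 clock genes with more than 1, in MDA-MB-468, in ZR-75-1 and in T47D, with the SE as bars and filled points for limma adjusted p under 0.05. In PER2 and PER3 the brighter probe set is lower in all 3 lines and the dimmer one is not called, while both probe sets of DBP are filled in MDA-MB-468.

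The remaining genes of the loop were read from lists of known function. Of 13 other loop genes, 8 were tested, and 5, 6 and 4 of them fell at 250 nM in MDA-MB-468, in ZR-75-1 and in T47D (30.3%, 42.8% and 33.7% of all genes). CIART, a repressor of CLOCK and BMAL1, was at -2.21 ± 0.15, -1.90 ± 0.15 and -0.91 ± 0.15 in these lines (SE, n = 2 against 2 arrays, all called in limma). NFIL3, which represses at D-boxes, was at -1.43 ± 0.10, -1.32 ± 0.10 and -0.50 ± 0.10, and TEF, a D-box activator like DBP, at -1.91 ± 0.14, -1.65 ± 0.14 and -0.83 ± 0.14, all called. BHLHE41, the paralogue of BHLHE40, was lower in MDA-MB-468 (-1.14 ± 0.16) and ZR-75-1 (-2.63 ± 0.16) and stood at 0.09 ± 0.16 in T47D (limma adjusted p = 0.675). The difference between ZR-75-1 and T47D was itself called (-2.72 ± 0.22, limma adjusted p = 4.84e-07). At 50 nM, TEF (-0.90 ± 0.14) and BHLHE41 (-0.93 ± 0.16) were lower in MDA-MB-468, and no other gene of the list was called in any line (limma).

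ARNTL (BMAL1), the main partner of CLOCK and named after its values were seen, was at 0.23 ± 0.12 in MDA-MB-468, -0.39 ± 0.12 in ZR-75-1 (lower, limma adjusted p = 0.0102) and -0.24 ± 0.12 in T47D at 250 nM. The ARNTL call in ZR-75-1 was lost after centring (-0.14) and with quantile normalization (0.07), both of which called it higher in MDA-MB-468 (0.43 and 0.54). The medians of the 8 genes were -0.92, -1.10 and -0.34. RORA, RORB and HLF lay under the filter.

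Of 18 kinases, ubiquitin ligase parts and proteases that act on clock proteins, 15 were tested, with 8, 10 and 7 lower and 2 higher in each line at 250 nM (of all genes 30.3%, 42.8% and 33.7% were lower and 9.54%, 9.93% and 9.61% higher). CUL1, the scaffold of the SCF ligases that mark PER and CRY proteins, was at -0.98 ± 0.06, -1.54 ± 0.06 and -1.17 ± 0.06 in MDA-MB-468, in ZR-75-1 and in T47D (SE, all called in limma). The kinase GSK3B was at -1.26 ± 0.08, -1.43 ± 0.08 and -0.54 ± 0.08. FBXW11, an F-box protein that recognises PER, was at -0.48 ± 0.07, -1.15 ± 0.07 and -0.18 ± 0.07, the last call being lost after centring (-0.06) and with quantile normalization (0.03). PRKAA1, a catalytic subunit of AMPK, which phosphorylates CRY1 in mouse cells, rose at 250 nM (0.43 ± 0.07, 0.41 ± 0.07 and 0.74 ± 0.07) and at 50 nM (0.55 ± 0.07, 0.39 ± 0.07 and 0.30 ± 0.07), under each scaling. The other higher genes at 250 nM were CSNK2B in MDA-MB-468 (0.15) and SKP1 in ZR-75-1 (0.44) and T47D (0.32), named after their values were seen, and CSNK2B was at 0.03 with quantile normalization. At 50 nM CUL1 in T47D (-0.35 ± 0.06) was the 1 lower gene of this list.

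Of 14 co-regulators 12 were tested, and 6 in each line were lower at 250 nM (30.3%, 42.8% and 33.7% of all genes). The deacetylase SIRT1 was at -1.71 ± 0.10, -2.11 ± 0.10 and -1.59 ± 0.10, and WDR5, a subunit of histone methyltransferase complexes that binds PER proteins, at -0.68 ± 0.08, -1.21 ± 0.08 and -0.97 ± 0.08. The acetyltransferases CREBBP (-1.19 ± 0.10, -1.27 ± 0.10 and -0.66 ± 0.10) and EP300 (-0.76 ± 0.11, -1.08 ± 0.11 and -1.01 ± 0.11) were lower as well (SE, all called in limma). KDM1A, named after its value was seen, was the 1 higher co-regulator, in ZR-75-1 (0.26). At 50 nM WDR5 was lower in MDA-MB-468 (-0.64 ± 0.08), and NAMPT, the enzyme that makes the NAD precursor used by SIRT1 and also named after its values were seen, in MDA-MB-468 (-0.42), in ZR-75-1 (-0.48) and in T47D (-0.27). The T47D call of NAMPT was lost after centring (-0.23) and with quantile normalization (-0.20).

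Centring the arrays changed these counts at 250 nM, beside the shares of all genes given for that scaling with the clock genes. In MDA-MB-468, in ZR-75-1 and in T47D it left 5, 5 and 4 lower with 2, 1 and 1 higher among the 8 loop genes, 4, 7 and 4 lower with 4, 3 and 2 higher among the 15 kinases, ligase parts and proteases, and 4, 5 and 5 lower with 2, 3 and 1 higher among the 12 co-regulators. With quantile normalization the loop genes had 5, 5 and 3 lower and 3, 2 and 1 higher, the 15 had 5, 7 and 3 lower and 1, 2 and 4 higher, and the co-regulators 4, 4 and 6 lower and 1, 2 and 3 higher.

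**Figure D5:**
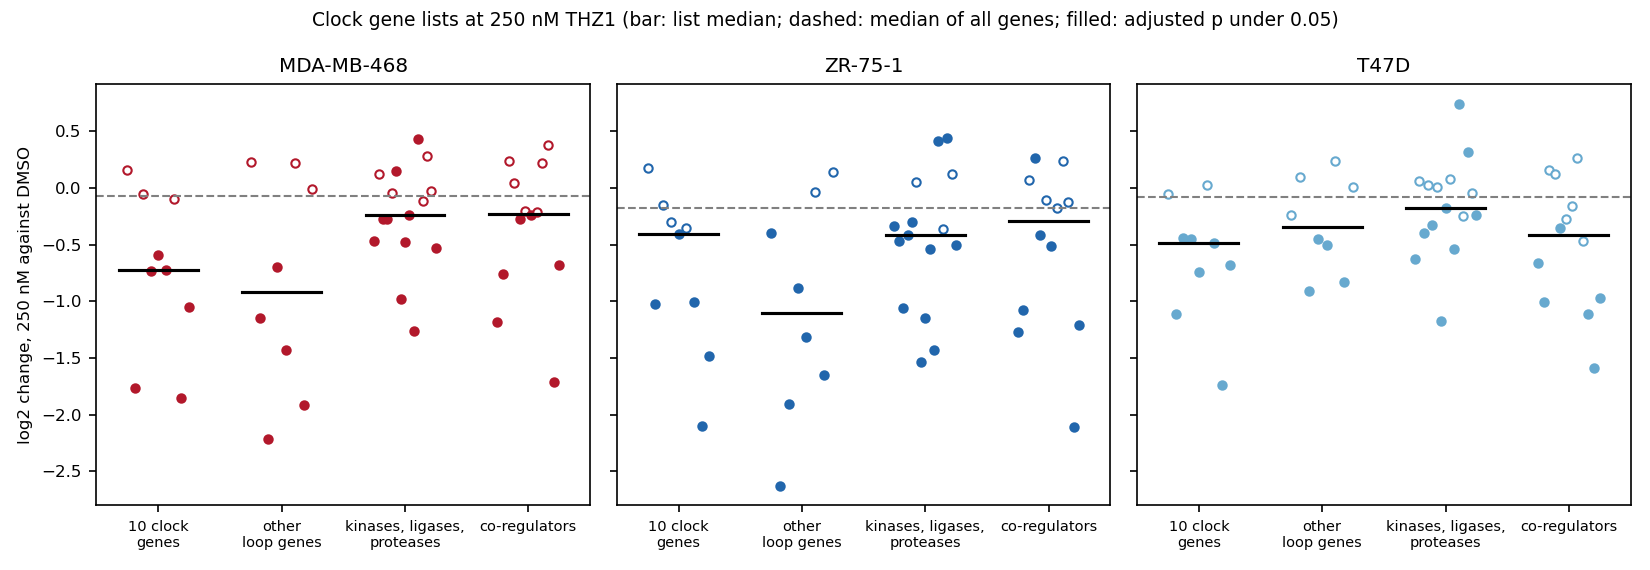
Log2 change at 250 nM against DMSO of the tested clock genes, other loop genes, kinases, ligase parts and proteases, and co-regulators in MDA-MB-468, in ZR-75-1 and in T47D. Points are genes, filled at limma adjusted p under 0.05, the bar is the list median and the dashed line the median of all 12644 genes. The median of the clock genes is -0.72, -0.41 and -0.49 in the 3 lines.

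How the clock genes moved together was described over the 12 line-by-dose means, after each line was centred on its own 3 doses, so that points of a line share its DMSO arrays. Among the 36 pairs of tested clock genes, CRY1 and BHLHE40 (Pearson r = 0.945), PER2 and PER3 (0.917) and CRY2 and BHLHE40 (0.916) were most alike. ARNTL2 and DBP were most opposed (-0.940), although ARNTL2 had no call against DMSO in any replicated line. That value includes the unreplicated BT-549 arrays, where ARNTL2 had 198.1, 211.2 and 174.4 and DBP 42.1, 37.4 and 63.5 over the doses. The genes most like PER2 were ZNF566 (r = 0.995), ZC3H4 (0.993) and ZNF606 (0.993). Those most like PER3 were SP2 (0.987), ATRIP (0.987) and ZNF320 (0.982), and most like BHLHE40 were FHIP2A, RNF113A and MIDN (0.988 each). CRY1 was nearest to PEDS1 (0.981), MAP1S (0.976) and ZNF230 (0.973), and CRY2 to ZNF555 (0.981), JADE1 (0.963) and CWC25 (0.962). NR1D2 was nearest to VPS33A (0.989), RGS16 (0.967) and VGLL4 (0.959). CLOCK was nearest to YIPF6 (0.970), DIXDC1 (0.961) and MMACHC (0.951), and DBP to UNC5A (0.980), GRB7 (0.958) and ZNF414 (0.942). Each was picked as the highest of 12644 genes, and no test was made.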

How the data were processed

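RNA of 21 samples was hybridised to PrimeView arrays after oligo(dT) amplification, per the labels' protocols. The deposited values are MAS5 signal intensity per probe set on a linear scale, per the submitters' processing notes, with the scaling of arrays not given in the sources used. The labels describe ERCC spike-in RNA added by cell number, but no probe set is named for it. Values under 1 were raised to 1 and taken to log2 with no further scaling. Each gene was represented by its probe set with the highest mean (44994 of 49395 probe sets have 1 symbol). The limma 3.58.1 fit in R 4.3.3 had 9 groups on 18 arrays, with Benjamini-Hochberg adjustment within each contrast, and was tested on simulated data. The rule for the members uses no measured value, but members, gene lists and tests were chosen with earlier results of these data known. All 10 clock genes are named, with up to 4 genes of each other list by mean absolute moderated t and the 3 genes most like each called clock gene. Alternatives were array scaling, a floor of 16, no filter, averaged probe sets, a replicate block, the line alone, no trend and each array left out. A planned comparison of PER and CRY protein sequences was not run.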

Additional observations from a re-analysis of the deposited data

Results flagged for a closer look

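At 250 nM THZ1, the test of the difference between lines called 3 results of clock genes. These were 1 of 9 lower and 1 of 9 higher in MDA-MB-468 against the ER+ lines (5.12% and 13.9% of all genes) and 1 of 9 lower in ZR-75-1 against T47D (19.8%). The log2 change of BHLHE40 in MDA-MB-468 was below that of the ER+ lines by 0.70 (-0.70 ± 0.13, SE, limma adjusted p = 0.00143). It kept its call in each alternative and without each array, between -0.81 and -0.61. That of NR1D2 in MDA-MB-468 was above that of the ER+ lines (0.65 ± 0.16, limma adjusted p = 0.00954). It lost its call with quantile normalization (0.40), with averaged probe sets (0.22) and without MDA-MB-468 DMSO array 1 (0.50) or 250 nM array 2 (0.53). The log2 change of PER3 in ZR-75-1 was below that in T47D (-0.80 ± 0.15, limma adjusted p = 0.00113), and lost its call with averaged probe sets (-0.24).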

How the results depend on the processing

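Of 74 calls, 45 held under each alternative run and without each array, and 29 were lost under at least 1. Over 1259 values from alternatives, 1169 stayed on their side of the threshold (39 of them uncalled and of the other sign), 44 lost a call, 45 gained one and 1 reversed. That was CRY1 in ZR-75-1 from 50 to 250 nM, at 0.054 with quantile normalization. Leaving out single arrays gave 2754 values, of which 62 lost and 33 gained a call. PER2 has no value with averaged probe sets, as it lay under the filter. The causes were not tested. With 2 arrays a dose, precision is limited by their number.

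Deviations of replicates with the same number had correlations from -0.22 to 0.29 over 9 pairs of groups within a line. The labels do not say how replicates were made, so whether the numbers pair the samples cannot be decided. The replicate block gave 2 lower responses in MDA-MB-468 than in the ER+ lines at 250 nM, 2 in ZR-75-1 than in T47D, and 1 lower DMSO level in MDA-MB-468 than in the ER+ lines.

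Counts of clock genes that moved by over 1.5 times were as follows. Averaged probe sets gave 0 lower at 50 nM in ZR-75-1 and 0 in T47D, 4 in T47D at 250 nM, 2 in T47D from 50 to 250 nM, 0 over the 4 lines at 50 nM and 2 higher with DMSO in ZR-75-1 than in T47D. For the DMSO level in MDA-MB-468 against the ER+ lines, averaged probe sets or no filter gave 1 lower. ZR-75-1 alone gave 1 lower at 50 nM. Centring or quantile normalization gave 4 lower in ZR-75-1 from 50 to 250 nM, and quantile normalization 4 in T47D at 250 nM. For the response of MDA-MB-468 against the ER+ lines, quantile normalization gave 1 lower at 50 nM. At 250 nM centring, quantile normalization, the floor of 16, averaged probe sets or no trend gave 2 lower, and quantile normalization or averaged probe sets gave 0 higher. Quantile normalization gave 1 higher response in ZR-75-1 than in T47D. With DMSO, centring gave 2 and quantile normalization 3 lower in MDA-MB-468 than in ZR-75-1, and quantile normalization 1 lower than in T47D. Over the 4 lines at 50 nM, leaving out BT-549, MDA-MB-468 or T47D gave 0.

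Leaving out 1 array at a time, the count of lower genes ranged from 2 to 4 at 50 nM, 6 to 6 at 250 nM and 3 to 4 from 50 to 250 nM in MDA-MB-468. It ranged from 1 to 2, 5 to 6 and 5 to 7 in ZR-75-1, and from 1 to 3, 5 to 7 and 3 to 5 in T47D. The 250 nM response in MDA-MB-468 against the ER+ lines had 1 to 2 lower and 0 to 1 higher, and ZR-75-1 against T47D 1 to 2 lower and 0 to 1 higher. With DMSO, MDA-MB-468 had 1 to 2 lower and 4 to 5 higher than the ER+ lines, 0 to 0 lower and 4 to 5 higher than ZR-75-1, and 1 to 2 lower and 4 to 4 higher than T47D. ZR-75-1 against T47D had 1 to 3 lower and 2 to 4 higher.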

Other observations

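On the single BT-549 arrays, other loop genes that fell in MDA-MB-468 and ZR-75-1 were also lower at 250 nM than with DMSO. The log2 differences at 50 and 250 nM were -1.15 and -2.20 for BHLHE41, -0.34 and -1.90 for CIART, -0.19 and -1.42 for NFIL3, and -0.80 and -0.78 for TEF. SIRT1 stood at -0.54 and -1.47 and GSK3B at -0.23 and -1.14. The other genes named as lower from the lists of SIRT1 and GSK3B fell less at 250 nM. They were WDR5 (-0.72), CUL1 (-0.56), CREBBP (-0.53), EP300 (-0.48) and FBXW11 (-0.20). Of all genes, 8.94% were at least 2-fold lower in BT-549 at 250 nM. PRKAA1 was higher at both doses, by 1.08 and 0.51. NPAS2, a relative of CLOCK, was at 0.81 and 0.83, while it was not called in the 3 replicated lines. None of these BT-549 differences has a replicate.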
